A study of Mus musculus with 12 samples.

Results

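The adhesion genes described here are 9 genes for integrin chains and selectin ligands of leukocytes, namely Itgam, Itgal, Itga4, Itga5, Itgb1, Itgb2, Itgb7, Selplg and Cd44. They were taken by gene symbol, as a set chosen with earlier results of these data known, from the 24454 genes of the normalized count table, and each symbol was found once. All 9 passed the filter on low values, which left 11476 genes for testing. Their levels were compared by genotype and by organ in 12 libraries of mouse leukemic blasts. These blasts descended from fetal liver cells that had been transformed by a retroviral vector carrying the MLL-AF9 fusion oncogene and a Venus reporter. Donor embryos were wildtype (WT) or lacked STAT3β, the short splice form of STAT3 (Δβ), while the full-length form STAT3α is kept in both. Cells were injected into a vein of young male NSG mice (NOD.Cg-Prkdc scid Il2rg tm1Wjl/SzJ), which lack T, B and NK cells of their own but keep myeloid cells, stroma and endothelium. Once the mice were diseased, Venus+ cells were sorted from spleen (SP) and bone marrow (BM). There were 3 libraries each of WT SP, Δβ SP, WT BM and Δβ BM, all of them with the oncogene and none from healthy tissue. The study worked with a small number of transformed lines per genotype, and the sources used here do not say which line or animal each library came from. P-values therefore measure the spread between these libraries, which may be technical.

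Integrins are adhesion receptors made of an α and a β chain, and neither chain reaches the cell surface in quantity without a partner. Leukocytes carry the β2 integrins CD11b/CD18 (Itgam with Itgb2) and LFA-1 (Itgal with Itgb2), which bind ICAMs and, for CD11b/CD18, complement fragments and fibrinogen. They also carry VLA-4 (Itga4 with Itgb1), which binds VCAM-1 and fibronectin, VLA-5 (Itga5 with Itgb1), which binds fibronectin, and α4β7 (Itga4 with Itgb7), which binds MAdCAM-1. PSGL-1, the product of Selplg, is the main ligand of P-selectin on leukocytes. CD44 binds hyaluronan and, in some glycosylated forms, E-selectin. In bone marrow these receptors hold progenitors and leukemic cells to stroma and vessel walls, and CD11b is also a marker that rises as myeloid cells mature.

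On GRCm38 (GENCODE M21), the β2 integrin genes are Itgam (chr7:128062640-128118491, plus strand), Itgal (chr7:127296260-127335138, plus strand) and Itgb2 (chr10:77530252-77565708, plus strand). The genes of the α4 and α5 receptors are Itga4 (chr2:79255426-79333123, plus strand), Itga5 (chr15:103344286-103366763, minus strand), Itgb1 (chr8:128685654-128733200, plus strand) and Itgb7 (chr15:102215995-102231944, minus strand). The selectin ligands are Selplg (chr5:113818536-113832644, minus strand) and Cd44 (chr2:102811141-102901665, minus strand).

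RefSeq promoters on GRCm38.p6 were at hand for 6 of the 9 genes, namely Itgam, Itga4, Itga5, Itgb1, Itgb7 and Cd44, but not for Itgal, Itgb2 and Selplg. The 250 bases before the RefSeq gene start are printed for Itgam, Itga5, Itgb1 and Cd44, because these were the genes with a RefSeq promoter whose unadjusted p was under 0.05 between genotypes in SP. Each runs 5′ to 3′ on the strand of the gene. Printed windows end where the GENCODE gene begins, except that of Itga5, which ends 28 bases before it. Capitals mark matches on either strand to GAGGAA, the core bound by the myeloid transcription factor PU.1, or to the GC box GGGCGG. The search also took in TGTGGT, a core bound by RUNX factors. It further took in TTCNNNGAA, the spaced palindrome bound by STAT dimers. The last motif searched was the TATA box, TATAAA.
Itgam (plus strand, chr7:128062390-128062639): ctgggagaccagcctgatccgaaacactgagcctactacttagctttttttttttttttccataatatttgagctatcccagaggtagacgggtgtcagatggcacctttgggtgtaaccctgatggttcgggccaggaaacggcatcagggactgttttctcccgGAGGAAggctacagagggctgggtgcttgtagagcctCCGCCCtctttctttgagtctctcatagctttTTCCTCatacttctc
Itga5 (minus strand, chr15:103366792-103367041): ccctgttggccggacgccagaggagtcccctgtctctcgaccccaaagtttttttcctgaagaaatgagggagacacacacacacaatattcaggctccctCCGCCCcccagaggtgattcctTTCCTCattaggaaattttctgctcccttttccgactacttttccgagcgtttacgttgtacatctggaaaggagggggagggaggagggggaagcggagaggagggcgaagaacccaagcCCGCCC
Itgb1 (plus strand, chr8:128685404-128685653): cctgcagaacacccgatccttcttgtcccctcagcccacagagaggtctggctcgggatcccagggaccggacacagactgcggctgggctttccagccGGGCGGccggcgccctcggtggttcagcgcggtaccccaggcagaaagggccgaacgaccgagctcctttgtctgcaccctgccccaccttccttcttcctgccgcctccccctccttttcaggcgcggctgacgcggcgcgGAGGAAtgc
Cd44 (minus strand, chr2:102901666-102901915): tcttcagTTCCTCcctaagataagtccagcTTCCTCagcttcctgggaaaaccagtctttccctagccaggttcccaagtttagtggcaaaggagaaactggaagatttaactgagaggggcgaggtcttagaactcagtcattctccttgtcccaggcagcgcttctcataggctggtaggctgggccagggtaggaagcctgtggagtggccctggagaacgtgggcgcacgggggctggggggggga
The PU.1 core was found at 2 places for Itgam, at 84 and 15 bases before the RefSeq gene start, at 2 for Cd44, at 243 and 220 bases, at 1 for Itga5, at 127 bases, and at 1 for Itgb1, at 9 bases. It was also found in 23.3% of all 32851 promoters cut to the same length. Itgam and Itgb1 held 1 GC box each and Itga5 held 2, against 32.7% of all promoters with at least 1. Of the promoters not printed, that of Itga4 held a RUNX core (14.0% of all promoters) and a GC box, and that of Itgb7 held no match. These letters for a STAT site (7.02% of all promoters) or a TATA box (12.4%) were in none of the 6 windows, and no matches overlapped each other. A match is a description of letters and was not tested for binding.

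Library depth was 9001051 to 13859727 reads on genes. Stat3 ranged in BM from 2714 to 3201 normalized counts for WT and from 2349 to 3228 for Δβ, and in SP from 2977 to 4430 for WT and from 2674 to 3236 for Δβ, but values per gene hold both splice forms, so they do not check the genotype. Of the genes that mark MLL-AF9 blasts, Hoxa9 (798 to 3410), Hoxa10 (89 to 1222), Meis1 (516 to 1757) and Kit (439 to 1790) were present in every library, while hemoglobin genes were listed at 0 in all. WT SP replicate 1 had the lowest value of each of these 4 genes, and for Hoxa10 the other 11 libraries had 344 to 1222. Summed B cell genes stayed between 223 and 466 and summed T and NK cell genes at or under 252. The 3 WT SP libraries were the least alike, with Pearson's r across genes, which are not independent replicates, of 0.897 to 0.964, compared with 0.962 to 0.968 in Δβ SP. WT SP replicates 2 and 3 had 2.48% and 2.41% of their reads on the ribosomal precursor Rn45s, and the other 10 libraries 0.178% to 0.725%.

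**Figure D1:**
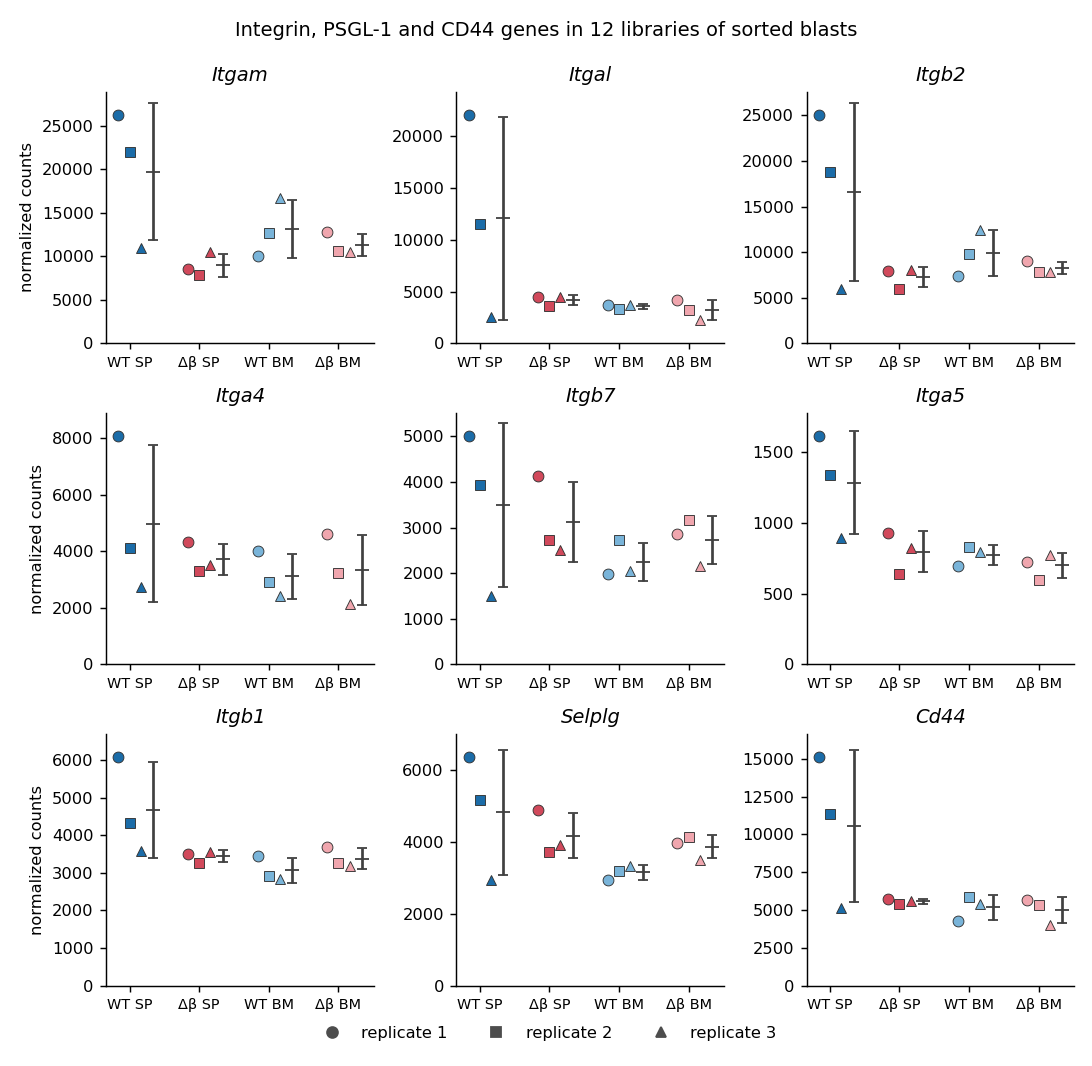
Normalized counts of the 9 genes in 12 libraries, with 1 panel per gene and a linear axis from 0. Points are libraries, with a shape for each replicate number, and the bar beside them is the mean ± SD of 3 libraries. WT SP replicate 1 is the highest point in all 9 panels, and WT SP replicate 3 lies near or below the other groups in most.

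The adhesion genes split the WT SP libraries. WT SP replicate 1 had the highest value of the 12 libraries for all 9 genes. Within WT SP, replicate 1 was above replicate 2 and replicate 2 above replicate 3 for all 9. The shares of all tested genes with that library highest, or in that order, were not counted. The median difference between replicates 1 and 3 was 1.55 on the log2 scale over these genes and 0.019 over all tested genes, of which 51.1% were higher in replicate 1. Between replicates 2 and 3 it was 1.01 and 0.036, with 52.6% of all genes higher in replicate 2. The fold of replicate 1 over replicate 3 went from 1.70 for Itgb1 to 8.71 for Itgal. Relative to the Δβ SP libraries, WT SP replicate 3 was above their range for Itgam and Itgb1, within it for Itga5, and below it for Itgal, Itga4, Itgb2, Itgb7, Selplg and Cd44. The limma results of the 9 genes for WT SP are therefore also given without this library, while edgeR and DESeq2 were run with it only.

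Other genes moved with the same libraries. In WT SP replicate 1, where all 9 adhesion genes were highest, the blast genes Hoxa9, Hoxa10, Meis1 and Kit were lowest, at 798, 89, 516 and 439 normalized counts. Other genes listed with them as leukocyte and blast markers went both ways in that library. Ctsg was also the lowest of the 12 libraries there, at 1721, but Spi1 and Cebpa were the highest, at 9726 and 1639. Ptprc, which encodes the leukocyte antigen CD45, was at 20833, 14695 and 6066 in the WT SP libraries, in the order of their numbers. Mpo, the myeloperoxidase of immature granule-forming cells, had 5947, 5256 and 40587 in WT SP and 53209, 25775 and 30744 in Δβ SP. In BM it had 14555, 8288 and 5172 for WT and 41895, 27630 and 24214 for Δβ. Among the WT libraries, only WT SP replicate 3 lay within the Δβ values of Mpo. The summed counts of 10 mature neutrophil genes ranged in SP from 136505 to 331616 for WT and from 90987 to 113567 for Δβ, and in BM from 138351 to 398068 for WT and from 110316 to 228969 for Δβ. This sum did not follow the order of the adhesion genes in WT SP, with replicate 2 highest and replicate 3 lowest. Single genes differed from the sum. Mmp8 (3066, 2224 and 329) and Ly6g (606, 491 and 61) had the order of the adhesion genes. Retnlg (348, 789 and 22), Cxcr2 (652, 920 and 71) and Mmp9 (8424, 15184 and 920) were far lower in replicate 3. Within WT SP, replicate 3 was lowest for every gene of the list except Camp (14235, 30075 and 22751). No gene of that list was under 3 reads in every library. Macrophage genes summed to 8579, 6089 and 3006 in the WT SP libraries and to between 3100 and 4736 in Δβ SP, and in BM to between 5737 and 8373 for WT and between 3856 and 5012 for Δβ. Nearly all of these sums came from Vcam1, Adgre1 and Hmox1, and Vcam1 is also a counter-receptor gene described further on. Without Vcam1 the BM sums overlapped, at 2703 to 3643 for WT and 2612 to 3321 for Δβ. Hmox1, the heme oxygenase gene, had 3925, 1402 and 314 in WT SP and 142 to 619 in the other groups. Of the 10 macrophage genes, Cd5l was under 3 reads in every library and the complement genes C1qa, C1qb and C1qc peaked at 14.8, 30.8 and 5.70 in WT SP replicate 1. The part of these genes in the result was not tested. In bulk RNA, fewer cells of a type and less RNA per cell cannot be told apart.

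Levels of the 9 genes can be compared with each other only per exon length, given here as RPKM, the reads per kilobase of exon scaled to the total of the library. On this scale Itgb2 and Itgam had the highest means in every group. In WT BM they stood at 296.5 ± 66.3 and 240.0 ± 52.9 (SD, n = 3), with overlapping libraries, and in Δβ BM at 254.4 ± 16.4 and 211.7 ± 19.98, where every library of Itgb2 was above every library of Itgam. A middle set of Itgb7, Selplg, Itgb1 and Cd44 lay between 68.1 and 75.3 in WT BM and between 69.4 and 92.7 in Δβ BM, and neighbours in that set overlapped. Itgal followed at 50.01 ± 2.79 in WT BM and 46.0 ± 13.4 in Δβ BM. Itga4 and Itga5 were lowest, at 20.6 ± 5.85 and 14.5 ± 1.39 in WT BM, and they overlapped in every group except Δβ SP. In WT SP Itgal ranked 3 by its mean, at 148.7 ± 116.4, where it ranked 7 in the other groups, but it overlapped with its neighbours there. The level of Itgam is less certain, because 3450 of its 5024 exon bases are shared with Gm49368 on the same strand. So is that of Itga4, because 1124 of its 13978 exon bases lie opposite exons of Cerkl. The strand setting of the count is not given in the sources used here. Exon lengths are those of GENCODE M21, while each count carries a RefSeq accession, so the exons counted may differ from those measured. Itga4 had the longest exon length of the set, and how far its low rank depends on that length was not tested.

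**Figure D2:**
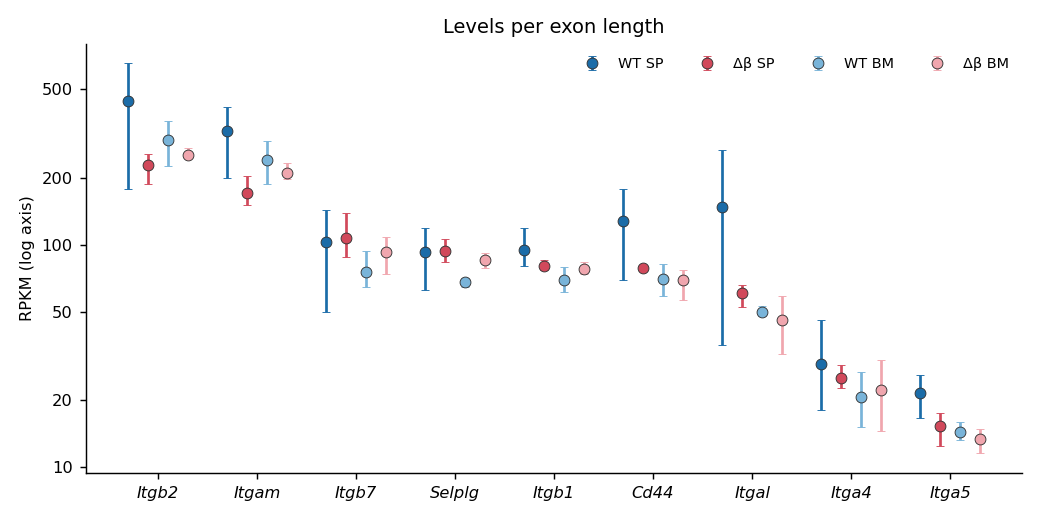
Level of each gene per exon length, in RPKM (reads per kilobase of exon, scaled to the library total), on a log axis. Points are means of 3 libraries and bars run from the lowest to the highest library of each of the 4 groups. Itgb2 and Itgam have the highest means and Itga5 the lowest in every group, and the WT SP bars are the longest.

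The comparison of Δβ with WT blasts in SP asks whether blasts without STAT3β carry a different set of adhesion receptors in that organ. All 9 genes were lower on average in Δβ SP, as were 51.9% of all tested genes, with a median log2 fold change of -0.66 against -0.01 over all genes. No gene passed an adjusted p of 0.05 in limma, a test that called 0.105% of all genes. At an unadjusted p under 0.05 there were 5, all lower (8.96% of all genes), namely Itgam, Itga5, Itgb1, Itgb2 and Cd44. On the recovered reads edgeR called 0 of the 9 (0.0349% of all genes) and DESeq2 called 1, Itgam, where it called 3.98% of all genes. Groups did not overlap for Itgam and Itgb1, compared with 9.37% of all genes lower without overlap.

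Itgam, the α chain of CD11b/CD18, had 26293, 21981 and 10941 normalized counts in WT SP and 8530, 7855 and 10473 in Δβ SP. Every WT library was above every Δβ library, although WT replicate 3 was only just so. The log2 fold change was -1.06 (SE 0.30, unadjusted p = 0.0049 and adjusted p = 0.218 from limma), and DESeq2 gave -1.11 with an adjusted p of 0.0107. Over the other settings without a left-out library the adjusted p was 0.0107 to 0.479. Itgb2, the shared β2 chain, had 25095, 18815 and 5961 in WT SP and 7883, 5985 and 7989 in Δβ SP. Here WT replicate 3 fell below all Δβ libraries, so the groups overlapped, and the log2 fold change was -0.97 (SE 0.43, adjusted p = 0.329 from limma). Itgal, the α chain of LFA-1, had 22114, 11569 and 2538 in WT SP against 4495, 3591 and 4432 in Δβ SP. Its WT libraries spread more than those of any other gene of the set, and its log2 fold change of -1.06 had an SE of 0.59 and an adjusted p of 0.407 from limma.

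Among the fibronectin and VCAM-1 receptors, the α5 chain Itga5 had 1616, 1340 and 893 normalized counts in WT SP and 927, 641 and 821 in Δβ SP. Only WT replicate 3 lay within the Δβ values. Its log2 fold change was -0.66 (SE 0.21, unadjusted p = 0.0098 and adjusted p = 0.235 from limma). Itgb1, the β1 chain that pairs with α4 and α5, had 6094, 4342 and 3582 in WT SP and 3496, 3261 and 3568 in Δβ SP. The groups did not overlap, but the lowest WT and the highest Δβ library were close, and the log2 fold change was -0.41 (SE 0.17, adjusted p = 0.316 from limma). Itga4, the α4 chain, had 8085, 4105 and 2751 in WT SP and 4317, 3293 and 3516 in Δβ SP, and Itgb7, the β chain of the MAdCAM-1 receptor, had 5017, 3939 and 1510 against 4122, 2731 and 2500. Both overlapped, with log2 fold changes of -0.29 (SE 0.38, 95% interval -1.12 to 0.54) and -0.03 (SE 0.38, 95% interval -0.87 to 0.81).

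Of the selectin ligands, Cd44 had 15131, 11379 and 5130 normalized counts in WT SP and 5735, 5389 and 5577 in Δβ SP. The Δβ libraries were tight and sat between WT replicate 3 below and the other WT libraries above, and the log2 fold change was -0.79 (SE 0.32, adjusted p = 0.304 from limma). Selplg had 6376, 5173 and 2930 in WT SP and 4904, 3720 and 3924 in Δβ SP. Its groups overlapped fully, and its log2 fold change of -0.14 (SE 0.24) had a 95% interval from -0.67 to 0.38.

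**Figure D3:**
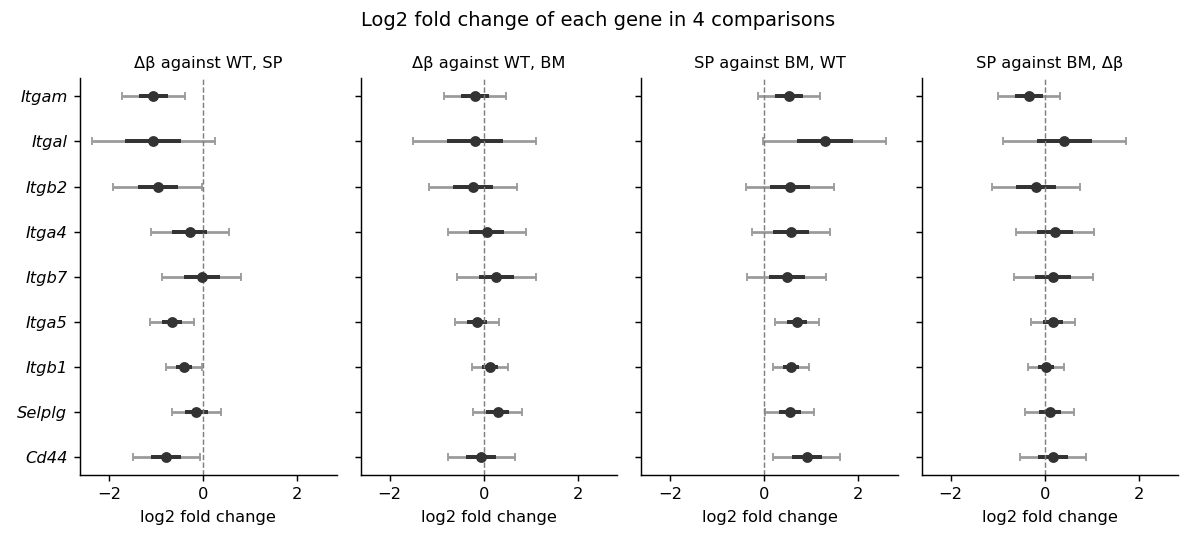
Log2 fold change of the 9 genes in 4 comparisons from limma, with positive values where Δβ is above WT or SP above BM. Thick bars are standard errors and thin bars 95% intervals. Estimates are all below 0 for Δβ against WT in SP and all above 0 for SP against BM in WT, while both other panels have every interval crossing 0.

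Without WT SP replicate 3, 6 of the 9 genes were called lower in Δβ SP, where 11.7% of all genes were called lower and 16.4% in either direction. The called genes were Itgal (log2 fold change -1.95, adjusted p = 0.0086 from limma), Itgb2 (-1.59, 0.0077), Itgam (-1.44, 0.0087), Cd44 (-1.24, 0.0087), Itga5 (-0.90, 0.0139) and Itgb1 (-0.58, 0.0318). Itga4, Itgb7 and Selplg were not called, at -0.65, -0.55 and -0.47. The fit then assumes that 2 WT SP libraries describe that group, and the choice of this library was made with its values in view. Leaving out any other library of the SP comparison gave 0 calls. Without WT SP replicate 1 the estimates shrank, to -0.80 for Itgam, -0.55 for Itgb2, -0.47 for Itga5, -0.46 for Cd44, -0.38 for Itgal and -0.20 for Itgb1, and those of Itga4, Itgb7 and Selplg turned to 0.13, 0.32 and 0.09 (adjusted p = 0.488 to 0.933 from limma over the 9 genes). The estimates thus depended on both of these WT SP libraries.

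**Figure D4:**
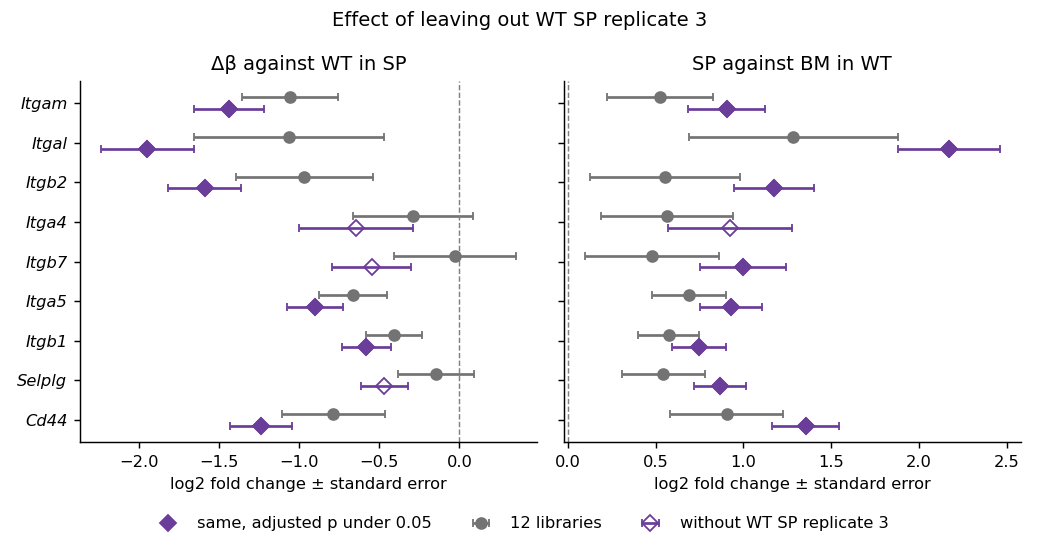
Log2 fold change ± SE of the 9 genes from all 12 libraries (circles) and without WT SP replicate 3 (diamonds, filled where the adjusted p was under 0.05), for Δβ against WT in SP and for SP against BM in WT. Leaving out the library moved every estimate away from 0, with 6 filled diamonds on the left and 8 on the right.

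In BM the same genes showed little difference between genotypes. Estimates ran from -0.23 for Itgb2 to 0.30 for Selplg, with a median of -0.05 against -0.02 over all genes. No gene was called by limma (0.0697% of all genes were), none had an unadjusted p under 0.05 (1.25% of all genes did so higher and 1.33% lower), and edgeR and DESeq2 called none (0.0697% and 0.322% of all genes). Itgam had 10019, 12675 and 16687 normalized counts in WT BM and 12778, 10652 and 10448 in Δβ BM, and its log2 fold change of -0.19 (SE 0.30) had a 95% interval of -0.85 to 0.47. Itgal, at 3719, 3293 and 3667 against 4205, 3223 and 2218, had a wider interval of -1.50 to 1.11. Itgb2 had 7386, 9737 and 12426 against 9040, 7859 and 7826, and an interval of -1.17 to 0.71.

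Selplg was the only gene of the set without overlap in BM, at 2932, 3186 and 3338 normalized counts in WT and 3965, 4143 and 3510 in Δβ. It was higher in all 3 Δβ libraries (log2 fold change 0.30, SE 0.24, adjusted p = 1.0 from limma), and 3.5% of all genes were higher without overlap. Itgb7 had 1983, 2736 and 2037 against 2857, 3169 and 2148 (log2 fold change 0.27, SE 0.38), and Itgb1 had 3460, 2909 and 2851 against 3697, 3263 and 3174 (0.14, SE 0.17). Itga4 had 4001, 2906 and 2416 against 4612, 3244 and 2129, with the widest range in Δβ. Itga5 had 697, 829 and 797 against 726, 599 and 771, and Cd44 had 4266, 5867 and 5387 against 5682, 5309 and 4000. All 5 of these genes overlapped between genotypes.

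The comparison of SP with BM within a genotype asks whether blasts of one kind differ between organs. In WT all 9 genes were higher in SP on average, as were 50% of all genes, with a median log2 fold change of 0.57 against a value of 0.00 over all genes. This comparison uses the same WT SP libraries as the one between genotypes, so they are not independent of each other. limma called 0 of the 9 and 0.0% of all genes, and edgeR and DESeq2 called none of the 9 (0.0% and 0.967% of all genes). At an unadjusted p under 0.05 there were 4 higher genes (4.36% of all genes), namely Cd44 at 0.90 (SE 0.32), Itga5 at 0.69 (SE 0.21), Itgb1 at 0.57 (SE 0.17) and Selplg at 0.54 (SE 0.24). Itga5 and Itgb1 were higher without overlap, compared with 5.66% of all genes. Itgal had the largest estimate of the set, 1.28, with a 95% interval of -0.02 to 2.59.

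Without WT SP replicate 3, 8 of the 9 genes were called higher in WT SP than in WT BM, all but Itga4, where 4.23% of all genes were called higher and 5.21% in either direction. Their log2 fold changes went from 0.75 for Itgb1 (adjusted p = 0.0294 from limma) to 2.17 for Itgal (adjusted p = 0.0215 from limma). Leaving out any other library of this comparison gave 0 calls. Estimates without WT SP replicate 1 ran from 0.13 for Itgb7 to 0.61 for Itgal, with that of Cd44 at 0.58.

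In Δβ blasts 0 of the 9 genes were called between organs (0.0% of all genes), none had an unadjusted p under 0.05 (0.654% of all genes did so higher and 1.12% lower), and edgeR and DESeq2 called none (0.0% and 0.0174% of all genes). Estimates there ran from -0.34 for Itgam (95% interval -1.002 to 0.32) to 0.42 for Itgal (95% interval -0.89 to 1.72), and as groups all 9 genes overlapped between the organs. Deviations of like-numbered SP and BM libraries of Δβ went together, so the pairs were also read one by one. Itgal, Itga5 and Cd44 were higher in SP in all 3 pairs, where 15.7% of all genes were, and 0 of the 9 genes were lower in all 3 (18.7% of all genes). With the replicate block the log2 fold changes of Itgal, Itga5 and Cd44 were 0.42 (SE 0.53), 0.18 (SE 0.19) and 0.17 (SE 0.32), and 0 of the 9 genes had an unadjusted p under 0.05.

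The genotype effect in SP was set against that in BM as an interaction. All 9 estimates were negative, as were 50% of all genes, with a median of -0.55 against 0.00 over all genes. No gene was called by limma (0.0% of all genes), edgeR (0.0%) or DESeq2 (0.0261%), and 1 of the 9 had an unadjusted p under 0.05 (1.95% of all genes in that direction), which was Itgb1 at -0.55 (SE 0.24, adjusted p = 0.926 from limma). Without WT SP replicate 3 there were again 0 calls, with adjusted p-values of 0.172 to 0.448 from limma. The genotype effect on these genes was therefore not shown to differ between SP and BM.

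Over both organs, with the log2 values of like-numbered SP and BM libraries averaged within a genotype and 3 means set against 3, limma called 0 of the 9 genes and 0.148% of all genes. At an unadjusted p under 0.05 there were 3, all lower (6.5% of all genes), namely Itgam at -0.62 (SE 0.13, unadjusted p = 0.0018 and adjusted p = 0.1997 from limma), Itgb2 at -0.60 (SE 0.20, adjusted p = 0.418 from limma) and Itga5 at -0.41 (SE 0.15, adjusted p = 0.452 from limma). Like-numbered SP and BM libraries did not go together in WT, so averaging them by number there rests on the labels only, and for Itgam it joined the highest WT SP library with the lowest WT BM library. With the 12 libraries as separate units the estimate of Itgam had an SE of 0.21 and an unadjusted p of 0.0136 (adjusted p = 0.322 from limma), and that of Itgb2 an SE of 0.30 and an unadjusted p of 0.0734. Without the WT libraries numbered 3 or 1, Itgam was at -0.72 or -0.59, and 0 of the 9 genes were called in either fit. The edgeR and DESeq2 fits over both organs also took the 12 libraries as separate units, so SP and BM libraries entered them as independent. edgeR called none (0.418% of all genes) and DESeq2 called Itgam, with an adjusted p of 0.0484, where it called 2.81% of all genes.

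Because the chains work in pairs, the ratio of α to β transcript was taken within each library, where it does not depend on the size factor. The log2 ratio of Itgam to Itgb2 was 0.07, 0.22 and 0.88 in WT SP replicates 1, 2 and 3, and 0.11 to 0.50 in all other libraries. WT SP replicates 1 and 3 thus held the lowest and the highest value of the 12. The ratio of Itgal to Itgb2 was -0.18, -0.70 and -1.23 in WT SP and -0.85 to -0.74 in Δβ SP, and in BM it ran from -1.76 to -0.99 for WT and from -1.82 to -1.10 for Δβ. All 3 Δβ SP libraries were above all 3 Δβ BM libraries in this ratio. For Itgam to Itgb2 they were all below, at 0.11 to 0.39 in Δβ SP and 0.42 to 0.50 in Δβ BM. The other ratios overlapped between organs in Δβ, and every ratio did so in WT. Organs were not compared by a test of these ratios, and the share of such separations among other gene pairs was not counted. The ratios of Itga4 to Itgb1 ran from -0.58 to 0.41, those of Itga4 to Itgb7 from -0.01 to 1.01, and those of Itga5 to Itgb1 from -2.44 to -1.70. Exact two-sided permutation tests of Δβ against WT in each organ gave p of 0.2 to 1.0 over 10 tests, all 1.0 after adjustment, in a design that cannot go below 0.1. These tests could therefore not pass 0.05 whatever the values. The groups overlapped in all 10 comparisons.

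**Figure D5:**
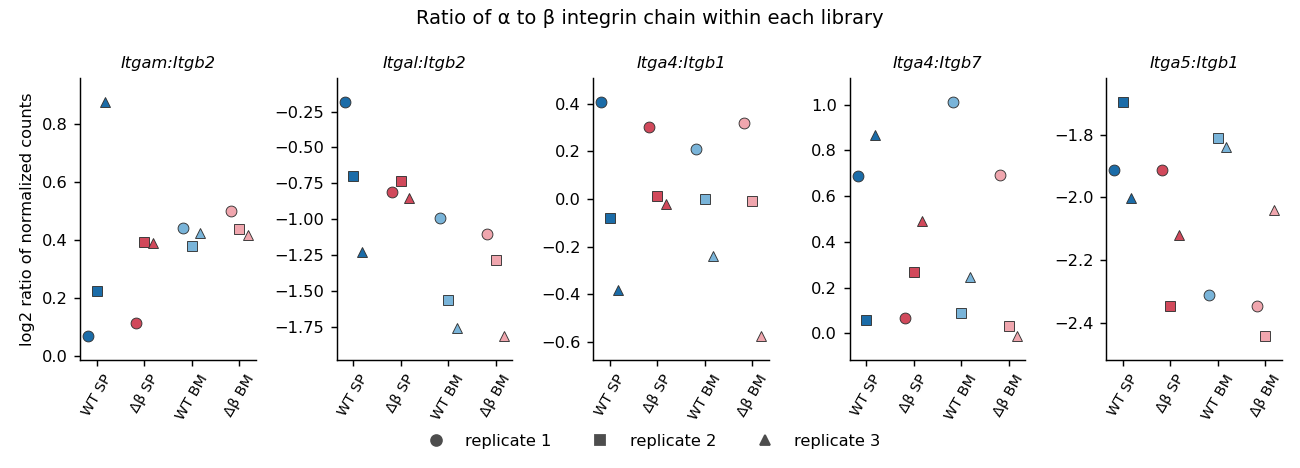
Log2 ratio of α to β chain normalized counts in each of the 12 libraries, for 5 integrin pairs, each with its own linear axis. Points are libraries, with a shape for each replicate number. Genotypes overlap in both organs for every pair, and WT SP replicate 3 has the highest Itgam to Itgb2 ratio, 0.88.

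The genes that act with these receptors were described by lists drawn up from general knowledge, but with earlier results of these data known. None of the 72 tested genes on these lists was called by limma in any of the 6 comparisons. At an unadjusted p under 0.05 there were 16 lower and 1 higher in Δβ SP (8.96% and 5.93% of all genes), and 1 of each in Δβ BM (1.33% and 1.25%). In WT SP against WT BM 11 were higher and 3 lower (4.36% and 3.91% of all genes), and in Δβ SP against Δβ BM 2 of each (0.654% and 1.12%). For the interaction 4 were lower and 1 higher (1.95% and 1.25% of all genes), and over both organs 11 were lower and 1 higher (6.5% and 3.41%). edgeR called none in any comparison. DESeq2 called Itgax, Pxn, Ezr, Rassf5 and Apbb1ip in SP (3.98% of all genes), and Itgax, F11r, Vcam1 and St3gal6 between the organs in WT (0.967%). Over both organs, with SP and BM libraries as separate units, it called Itgax and Pxn (2.81%). There were 24 tested genes that activate integrins or link them to actin. In Δβ SP 10 of them were lower and 0 higher at an unadjusted p under 0.05 (8.96% and 5.93% of all genes). The median log2 fold change of the 24 was -0.53. Of the 24 genes, 12 were called lower without WT SP replicate 3 (11.7% of all genes). Pxn, the focal adhesion adaptor paxillin, had 4538, 4982 and 3667 normalized counts in WT SP and 3144, 2775 and 3141 in Δβ SP (log2 fold change -0.53, SE 0.15, adjusted p = 0.218 from limma). Apbb1ip, whose product RIAM brings talin to integrins, had 5871, 4658 and 3063 against 2929, 2434 and 2818 (-0.69, SE 0.22, adjusted p = 0.234 from limma). Both were without overlap, and WT replicate 3 was the lowest WT library in each. Without it their log2 fold changes were -0.66 and -0.94, and without WT SP replicate 1 they were -0.50 and -0.47. In BM 0 of the 24 had an unadjusted p under 0.05.

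Of 19 other integrin chains, 10 passed the filter, and their median log2 fold change in SP was -0.04. Itgax, which encodes CD11c, the α chain of the CD11c/CD18 integrin, had 1624, 326 and 153 normalized counts in WT SP, 47, 121 and 80 in Δβ SP, 83, 19 and 55 in WT BM and 39, 44 and 29 in Δβ BM. WT SP was above all other libraries, mostly through replicate 1, and the log2 fold change in SP was -2.48 (SE 0.77, adjusted p = 0.228 from limma). Itgav, the αV chain, was at -0.95 (SE 0.37, adjusted p = 0.286 from limma) with overlap. These genes were at -3.23 and -1.39 without WT SP replicate 3 and were the 2 of 10 called lower (11.7% of all genes), and without WT SP replicate 1 they were at -1.53 and -0.55 and not called.

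Counter-receptors and matrix genes, of which 11 of 17 were tested, went in no common direction. In Δβ SP 1 was higher and 1 lower at an unadjusted p under 0.05 (5.93% and 8.96% of all genes), with a median of -0.28. Without WT SP replicate 3, 1 of them was called higher and 3 lower (4.7% and 11.7% of all genes). Vcam1, the counter-receptor of VLA-4, had 4730, 5511 and 2910 normalized counts in WT BM, 1684, 2131 and 1244 in Δβ BM, 699, 1291 and 946 in WT SP and 1157, 2409 and 760 in Δβ SP. WT BM was above every other group without overlap, with a log2 fold change of -2.16 for WT SP against it (SE 0.40, unadjusted p = 2.4e-04 and adjusted p = 0.357 from limma) and of -1.36 for Δβ BM against it (SE 0.40, adjusted p = 1.0 from limma). The former was -2.16 again without WT SP replicate 3, with an adjusted p of 0.0332 from limma. Without WT SP replicate 1 it was -1.94, with an adjusted p of 0.9985 from limma. Fn1, which encodes fibronectin, had 28796, 28088 and 3623 in WT SP and 5362, 1436 and 7475 in Δβ SP. Its log2 fold change was -1.89 (SE 0.83, adjusted p = 0.324 from limma). It was -2.88 without WT SP replicate 3 and -1.39 without WT SP replicate 1. Icam2, a ligand of LFA-1, was higher in Δβ in SP by 0.41 (SE 0.16, adjusted p = 0.296 from limma) and in BM by 0.38 (SE 0.16, adjusted p = 1.0 from limma), the latter without overlap.

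On the selectin side, 7 of 9 other ligands and selectins and 13 of 15 enzymes that glycosylate or sulfate selectin ligands were tested. In SP their medians were -0.32 and -0.11, with 2 and 0 lower at an unadjusted p under 0.05 (8.96% of all genes). Without WT SP replicate 3 there were 1 of 7 and 2 of 13 called lower, beside 11.7% of all genes. Glg1, which encodes the E-selectin ligand ESL-1, was at -0.47 (SE 0.18, adjusted p = 0.286 from limma). Selp itself had only 17, 18 and 21 normalized counts in WT SP and 7, 8 and 6 in Δβ SP. St3gal6, a sialyltransferase that helps to build sialyl Lewis x, had 191, 55 and 13 in WT SP and 3, 0 and 9 in WT BM. It was higher in WT SP without overlap (log2 fold change 3.97, SE 0.99, adjusted p = 0.523 from limma). This estimate was 4.93 without WT SP replicate 3 and 3.04 without WT SP replicate 1. Of 7 tested linkers and partners of CD44, 1 was lower in Δβ SP at an unadjusted p under 0.05 (8.96% of all genes). It was Ezr, which encodes the actin linker ezrin, at -1.12 (SE 0.39, adjusted p = 0.259 from limma). Ezr was at -1.62 without WT SP replicate 3, when 4 of the 7 were called lower (11.7% of all genes). Without WT SP replicate 1 it was at -0.80 (adjusted p = 0.606 from limma). Ezr had 9244, 7544 and 2965 in WT SP and 2558, 2428 and 3233 in Δβ SP, the same low WT library as for Itgb2 and Cd44.

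Patterns over the 12 libraries were compared by the root mean square difference of log2 values, each centred on the gene's own mean. Among the members the closest pair was Itgam and Itgb2, at 0.196, yet 29 other tested genes were closer to Itgam than Itgb2 was. Itgb7 and Selplg differed by 0.207, and Selplg ranked 4 among all genes by closeness to Itgb7. The nearest genes to Itgam were Dock5 (0.102), Ceacam1 (0.132) and Vsir (0.133). Those nearest to Itgb2 were Slc6a6 (0.106), Rassf5 (0.128), which encodes the RAP1 effector RAPL, and Pag1 (0.138). For Itgal they were L1cam (0.175), Rara (0.223) and Fam49a (0.225).

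Cd44 was nearest to Myo1c (0.0997), Ptpn1 (0.134) and Relt (0.148), and Itga5 to Tmc6 (0.127), Unc119 (0.141) and Spi1 (0.152), the gene for PU.1. Itgb1 was nearest to Hsd17b11 (0.1002), Actr1a (0.101) and Nsf (0.104), and Itga4 to Arl6ip5 (0.168), Trpv2 (0.171) and Mx1 (0.181). For Itgb7 the nearest were Lat2 (0.178), Dhx58 (0.186) and Cd48 (0.189), and for Selplg Anxa7 (0.118), Fez2 (0.141) and Slc39a1 (0.142). The genes' own root mean square deviations ran from 0.279 for Itgb1 to 0.893 for Itgal. These likenesses come from the same 12 libraries, in which WT SP replicate 1 weighs heavily, and are a description.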

How the data were processed

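The authors made poly-A enriched RNA libraries of sorted MLL-AF9 blasts. Genotype and organ, as labelled, set the 4 groups of 3 libraries. The submitters' processing notes name FastQC, STAR, featureCounts and DESeq2 and the builds GRCm38 and mm10, and the counting options, strand included, are not given in the sources used here. The authors deposited 1 signal value per gene and library, a gene count divided by 1 size factor. Divided by what 1 read is worth in its library, 100% of values came out whole within 0.001 reads, which gave back the reads. A further 6 columns match no sample label and were not used. Depth was 9001051 to 13859727 reads, and a floor of 3 reads covers counting error only.

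limma 3.58.1 in R 4.3.3 (lmFit, eBayes with trend) was run on log2(normalized count + 1) for 11476 genes whose mean was 10 or more, with 4 group means and Benjamini-Hochberg adjustment over all tested genes at 0.05. Fold changes are on that scale. edgeR 4.0.16 (quasi-likelihood) and DESeq2 1.42.0 were run on recovered reads. On simulated counts with 200 genes changed by 2 on the log2 scale, limma recovered 155 (Δβ against WT in SP), 161 (in BM), 157 (SP against BM in WT) and 152 (in Δβ), with 9, 5, 5 and 8 false calls. That change is larger than any estimate of the 9 genes from all 12 libraries. The simulation also gave each gene the same spread in all 4 groups, whereas the WT SP libraries were the least alike. It therefore does not give the power for these genes. Positions and exon lengths are from GENCODE M21 on GRCm38, and promoters from RefSeq. In each list the named genes are at most 5 called ones, or otherwise the 2 with the smallest p, in each comparison, of which the text gives a selection, and for each member the 3 genes with the nearest pattern. Members and lists were chosen with earlier results of these data known.

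Whether replicate numbers pair libraries was checked by correlating deviations from group means. Same-numbered SP and BM libraries correlated in Δβ (0.61 to 0.66) but not in WT (-0.24 to -0.01), and genotypes did not (-0.17 to 0.20 in SP, -0.09 to 0.13 in BM). Alternatives were other pseudocounts, filters and scalings, eBayes without trend, fewer libraries in the fit, a replicate block, and each library left out in turn.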

Additional observations from a re-analysis of the deposited data

How the results depend on the processing

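Library WT SP replicate 3 decided the calls: leaving out 1 library in turn gave 0 to 6 called genes for Δβ against WT in SP and 0 to 8 for SP against BM in WT, and the highest numbers came without that library, when 16.4% and 5.21% of all genes were called. In the other 4 comparisons no left-out library gave a call. DESeq2 called 1 of the 9 genes, Itgam, in SP and 1, again Itgam, over both organs, against 0 for limma. Over both organs DESeq2 and edgeR took SP and BM libraries as separate units, unlike the main limma fit. In the remaining settings without a left-out library, which were pseudocounts of 0.25 and 4, no filter, a minimum mean of 50, TMM and quantile scaling, eBayes without trend, edgeR, fewer libraries in the fit (or 12 separate libraries for both organs) and the replicate block, the number of called genes stayed at 0 in all 6 comparisons. With the replicate block 0 of the 9 genes were called in each comparison. The block follows the replicate numbers, and like-numbered libraries went together only between SP and BM in Δβ. For the other comparisons the block therefore does not show what a true pairing would do. Itgb7 in SP turned to 0.0037 under TMM and to 0.14 under quantile scaling, and Selplg in SP to 0.030 under quantile scaling, and the cause was not tested.

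Other reversals came from leaving out 1 library. Of those listed here, the interactions of Itga4 and Itgb7 had the largest estimates from all 12 libraries, at -0.35 and -0.30. Ranges of log2 fold change for Δβ against WT were -0.65 to 0.13 (Itga4), -0.55 to 0.32 (Itgb7) and -0.47 to 0.093 (Selplg) in SP, -0.41 to 0.051 (Itgal), -0.21 to 0.35 (Itga4) and -0.19 to 0.10 (Cd44) in BM, and -0.38 to 0.20 (Itga4), -0.25 to 0.015 (Itgb1), -0.17 to 0.28 (Itgb7) and -0.065 to 0.17 (Selplg) over both organs. For SP against BM in Δβ they were -0.070 to 0.49 (Itga4), -0.014 to 0.10 (Itgb1), -0.042 to 0.32 (Itgb7) and -0.016 to 0.18 (Selplg), and for the interaction -0.71 to 0.072 (Itga4) and -0.82 to 0.047 (Itgb7). The Δβ minus WT difference in log2 chain ratio ranged in SP from -0.25 to 0.15 (Itgam to Itgb2), -0.36 to 0.17 (Itgal to Itgb2) and -0.064 to 0.33 (Itga4 to Itgb1), and in BM from -0.13 to 0.26 (Itgal to Itgb2), -0.28 to 0.17 (Itga4 to Itgb1) and -0.44 to 0.071 (Itga4 to Itgb7).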
